A study of Mus musculus with 2 samples.

Results

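Spp1, Arg1, Apoe, Lyz2, Cxcl2, Il1b, Il1rn, C1qb, Pf4 and Ccl6 are genes that tumour macrophages and monocytes express at high level. They were followed in gated myeloid cells and in the lymphocytes captured beside them. The 10 genes, out of 32285 in the count tables, were picked by symbol because earlier results of these data had shown them to be abundant in myeloid cells and present at a low level in T and NK cells, so their high myeloid level is a description and not a finding. Tumours grown in C57BL/6 mice, a standard inbred line, were the source, and the sort took cells with both CD45, found on leukocytes, and CD90.2 (Thy1), found on T cells. A single library was made for wild-type mice (WT) and a single library for mice labelled as lacking Dapl1 (Dapl1-KO), and the study asks how T cells in tumours differ without that gene. Each captured RNA 3′ end was tagged with a unique molecular identifier (UMI), so levels, in UMIs per 1000000 UMIs of the same cells (CPM), are not divided by transcript length. With 1 library per label no comparison has a replicate check, no test was run, and exact 95% intervals cover counting error only. UMIs of 1 cell are not independent, which these intervals leave out.

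After filtering, 8989 cells of the library labelled WT and 10150 of the library labelled Dapl1-KO remained, with medians of 7357 and 8488.5 UMIs. Before that, 13132 cell barcodes had occurred in both libraries, and the smaller copy of each was dropped. Whether the libraries exchanged reads or share cells was not tested, and this bears on every value compared between them. Sex-linked transcripts differed between the libraries: 74.2% of T and NK cells labelled WT held Xist or Tsix and no Y-linked UMI, while 69.1% of those labelled Dapl1-KO held a Y-linked UMI and neither Xist nor Tsix. A further 893 T and NK cells labelled WT (11.1%) held a Y-linked UMI and neither Xist nor Tsix. Sex and genotype therefore cannot be told apart here. Dapl1 itself was counted at 33.9 CPM in T and NK cells labelled WT and at 27.5 CPM in those labelled Dapl1-KO. The position of the deletion relative to the counted 3′ ends is not known here, so this gene does not check the label.

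Macrophages take up dying cells, lipids and matrix, digest them in lysosomes and shape other immune cells through secreted proteins. In tumours they are known for making osteopontin (Spp1), a secreted phosphoprotein that binds CD44 and integrins, and apolipoprotein E (Apoe), which carries cholesterol out of cells. Arginase (Arg1) consumes the arginine that T cells need, and lysozyme (Lyz2) is a classical marker of the lineage. In droplet libraries a UMI of such a gene in a lymphocyte can come from the lymphocyte's own RNA, from free RNA in the droplet or from material of a second cell.

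The promoters of 4 of the genes are shown because these genes stand for the patterns described below, Spp1 for CD8 T cells, Cxcl2 and Il1rn for regulatory T cells, and Lyz2 for a gene that stayed near the bottom in lymphocytes. RefSeq's table matched 9 of the 10 genes, all but Arg1. Each is the 200 bases before a transcription start in RefSeq on GRCm38.p6, read 5′ to 3′ on the gene's strand, with motif matches on either strand in capitals. Spp1 lies at chr5:104434911-104435110 on the plus strand, Cxcl2 at chr5:90903699-90903898 on the plus strand, Il1rn at chr2:24336660-24336859 on the plus strand and Lyz2 at chr10:117282273-117282472 on the minus strand.
Spp1: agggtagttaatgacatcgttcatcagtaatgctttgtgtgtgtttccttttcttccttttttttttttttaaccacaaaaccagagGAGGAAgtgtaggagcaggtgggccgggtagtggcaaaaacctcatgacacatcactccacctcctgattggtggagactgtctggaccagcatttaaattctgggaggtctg
Cxcl2: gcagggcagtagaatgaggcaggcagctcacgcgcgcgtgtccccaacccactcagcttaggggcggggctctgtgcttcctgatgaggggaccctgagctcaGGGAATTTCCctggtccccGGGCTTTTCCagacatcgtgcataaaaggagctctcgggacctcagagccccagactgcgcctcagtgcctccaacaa
Il1rn: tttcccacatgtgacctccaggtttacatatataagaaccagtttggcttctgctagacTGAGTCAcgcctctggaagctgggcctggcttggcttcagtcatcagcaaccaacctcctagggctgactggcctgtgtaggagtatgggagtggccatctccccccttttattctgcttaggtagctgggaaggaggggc
Lyz2: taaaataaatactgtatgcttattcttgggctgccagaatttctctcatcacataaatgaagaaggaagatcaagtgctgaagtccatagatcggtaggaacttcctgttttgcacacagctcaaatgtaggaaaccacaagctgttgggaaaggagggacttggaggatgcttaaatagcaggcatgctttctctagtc
The capitals in Cxcl2 mark a pair of NF-kB-type motifs (10 bases, GGGNNTT followed by NCC, not overlapping each other), which begin 97 and 78 bases before the start. In Il1rn they mark an AP-1 motif (TGANTCA) 141 bases before the first of its RefSeq starts. In Spp1 they mark the letters of a PU.1 core (GAGGAA) 113 bases before the first of its starts. Windows of other starts, not shown, differed. A later Il1rn start had the NF-kB letters 51 bases before it and no AP-1 match. A later Spp1 start had C/EBP letters 156 bases before it and no PU.1 match. Among 32851 promoters of the same length, 3.39% held the NF-kB letters, 5.48% the AP-1 letters and 19.0% the PU.1 letters. Searches for a C/EBP motif (TTGCNNAA, in 7.47% of promoters) and a TATA box (TATAAA, in 9.96%) gave no match in these 4 windows. A match describes the letters of the window and says nothing of a factor bound there.

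Few of the sorted cells were myeloid. Cells with UMIs of at least 4 of 12 macrophage and monocyte markers (none of them among the 10 genes) and at most 1 Cd3 UMI numbered 45 (0.501% of cells) with the WT label and 131 (1.29%) with the Dapl1-KO label. Macrophage-like cells made up 24 and 65 of them, monocyte-like cells 17 and 33, dendritic-like cells 0 and 1, and 4 and 32 stayed unnamed. No cell passed the gate for neutrophils. A further 165 and 274 cells held at least 4 myeloid markers together with at least 2 Cd3 UMIs, or in rare cases at least 3 melanocytic genes, and are called mixed. They were deep, with medians of 22560 and 17594 UMIs against 11942 and 9241 in myeloid cells. In the library labelled WT, 23.0% of mixed cells held both Y-linked and Xist or Tsix UMIs, against 2.95% of T and NK cells. With the Dapl1-KO label these shares were 2.55% and 0.988%.

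In myeloid cells the genes ranged from 380.2 CPM for Il1rn to 12869 CPM for Cxcl2 under the WT label, and from 189 CPM for Pf4 to 6723 CPM for Cxcl2 under the Dapl1-KO label. Cxcl2, a chemokine that draws neutrophils through CXCR2, was the most abundant of the 10 in both. Osteopontin (Spp1) stood at 1949 and 2697 CPM and lysozyme (Lyz2) at 2292 and 2091 CPM. Il1b, the inflammatory cytokine interleukin-1 beta, stood at 3317 and 3927 CPM. Arg1 stood at 1159 and 1009 CPM. Arg1 breaks down arginine, and its level differed little between the libraries.

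Apoe was 2942 CPM in myeloid cells labelled WT and 739.5 CPM in those labelled Dapl1-KO, a log2 ratio of -1.99 (interval -2.11 to -1.88) for Dapl1-KO over WT. Pf4, a chemokine of platelets and some tissue macrophages, was 1632 against 189 CPM, a log2 ratio of -3.11 (-3.32 to -2.91). Ccl6, a chemokine of myeloid cells, was 1621 against 666 CPM (log2 ratio -1.28), C1qb, a chain of the complement starter C1q, 1487 against 859 CPM (-0.79), and Cxcl2 was 0.94 lower on the log2 scale. Il1rn, the receptor antagonist that blocks interleukin-1, went the other way, from 380.2 to 1408 CPM, a log2 ratio of 1.89 (1.68 to 2.10). Spp1 (0.47), Il1b (0.24), Lyz2 (-0.13) and Arg1 (-0.20) differed by less than 1.5-fold. Of the 10 genes, 1 was at least 1.5-fold higher and 5 at least 1.5-fold lower, where 8.03% and 10.3% of the 1307 genes at 100 CPM or more in myeloid cells passed those folds. The median log2 ratio was -0.50 over the 10 genes and -0.05 over the 1307. Since the genes were picked with these results known, the counts describe them only.

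Some of the differences were also seen in how many myeloid cells held a gene at equal depth. With each cell thinned to 2000 UMIs, Apoe was held by 75.7% of myeloid cells labelled WT and 34.0% of those labelled Dapl1-KO, Pf4 by 42.8% and 13.7%, and Ccl6 by 73.6% and 37.7%. Il1rn was held by 32.1% and 68.4%. Cxcl2 was held by 71.3% and 68.2% and C1qb by 51.5% and 35.7%, each with overlapping intervals. Within macrophage-like cells, 2 of the 10 genes were at least 1.5-fold higher and 5 lower, where 10.4% and 14.0% of the 1368 genes at 100 CPM or more were. Apoe there was 3676 and 1150 CPM, Ccl6 1694 and 969 CPM, and Il1rn 247 and 1183 CPM. Monocyte-like cells had the same directions for these 3 genes, with Apoe at 1957 and 194 CPM, Ccl6 at 1678 and 308 CPM, and Il1rn at 681 and 2098 CPM. In monocyte-like cells 3 genes were higher and 3 lower, where 13.6% and 16.8% of 1321 genes were. Spp1 was 1749 and 3594 CPM in macrophage-like cells but 2541 and 2125 CPM in monocyte-like cells. That second direction hung on 1 cell. It held 246 of the 474 Spp1 UMIs of monocyte-like cells labelled WT, and without these UMIs their level was 1222 CPM. Pf4 and C1qb, which were rare in monocyte-like cells (9 and 45 UMIs of Pf4, 7 and 34 of C1qb), were lower with the Dapl1-KO label in macrophage-like cells and higher in monocyte-like cells. With so few cells, 1 cell carried much of a sum: the cell with the most UMIs held between 11.9% (Arg1) and 30.5% (Pf4) of a gene's myeloid UMIs in the library labelled WT and between 5.56% (Il1rn) and 18.0% (Apoe) in the other. These ranges are over all myeloid cells, and shares within the smaller classes could be larger. With the WT label, 1 cell held 41.9% of Spp1 UMIs in macrophage-like cells. In monocyte-like cells 1 cell held 51.9% of Spp1 and 85.7% of C1qb UMIs.

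Mixed cells held most UMIs of the 7 genes other than Spp1, Apoe and Cxcl2, counted as a sum. They held 77.2% (WT) and 57.8% (Dapl1-KO) of all UMIs, against 17.4% and 32.9% in myeloid cells and 3.05% and 4.99% in T and NK cells. Their T cell genes (Cd3d, Cd3e, Cd3g, Trac and Cd8b1 together) stood at 60.4% and 64.1% of the level in CD8 T cells, against 1.81% and 1.72% in myeloid cells. They held less of Spp1 (34.9% and 19.9%), and for Apoe 60.9% and 24.2%, where T and NK cells held 14.8% and 53.1%. Between the libraries, mixed cells repeated the lower Apoe (log2 ratio -2.01), Ccl6 (-1.48), Pf4 (-1.31) and C1qb (-1.12) and the higher Il1rn (1.59). Spp1 (-0.42) and Il1b (-0.59) were lower and Arg1 (0.23) was higher there, each opposite to myeloid cells. Lyz2 stood at -0.77, against -0.13 in myeloid cells.

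**Figure D1:**
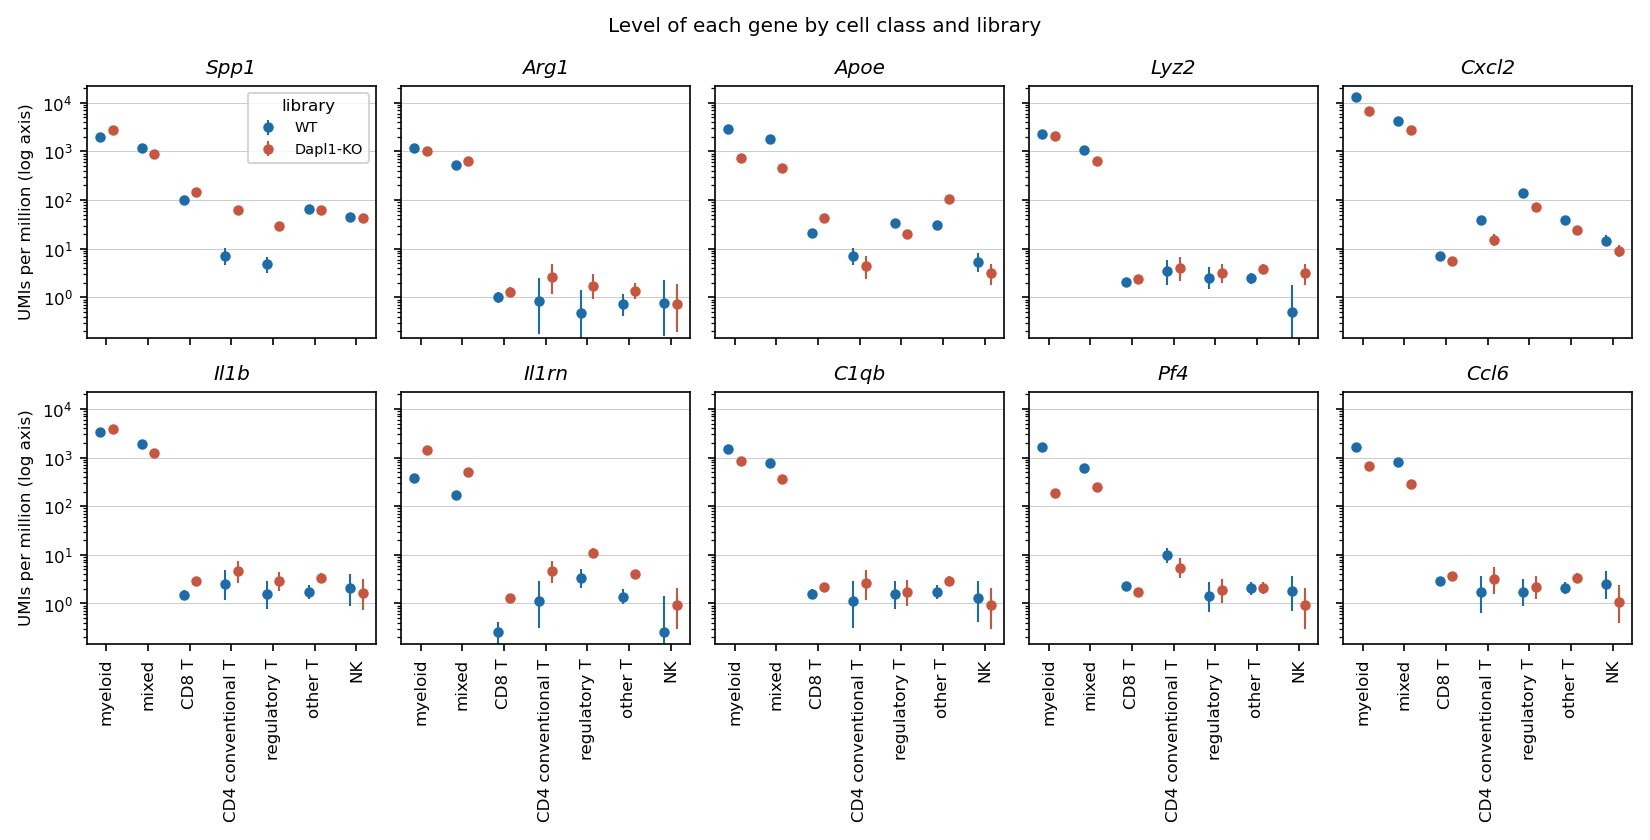
Level of each gene in CPM (log axis) by cell class for WT (blue) and Dapl1-KO (red), with points for summed counts and bars for exact 95% Poisson intervals. In each library all 10 genes are higher in myeloid and mixed cells than in the 5 lymphocyte classes, with Spp1 at 98.6 and 148 in CD8 T cells and Cxcl2 at 140 and 73.3 in regulatory T cells.

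T and NK cells (8029 and 8908 cells, with at most 1 UMI-positive myeloid marker) held the 10 genes at 139 and 199 CPM in all, against 29647 and 20308 CPM in myeloid cells. Most of them held none: 73.1% and 67.0% had no UMI of any of the 10. At a depth of 2000 UMIs, 9.60% and 12.1% of T and NK cells held at least 1. The 12 myeloid gate markers summed to 17.8 and 18.3 CPM in the same cells. T and NK cells with 1 of these markers held the 7-gene sum at 11.7 and 20.7 CPM, and those with none at 12.2 and 15.6 CPM. The folds were 0.96 (0.84 to 1.09) and 1.33 (1.21 to 1.45). Between the libraries the log2 ratio of this sum was 0.82 with a marker and 0.35 without. Cells with a marker were deeper, with medians of 13291.5 and 13300 UMIs against 6630 and 7557. Thinned to 2000 UMIs, 2.84% and 4.62% of cells with a marker held at least 1 of the 7 genes, against 2.49% and 3.33% of those without.

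The genes did not keep 1 ratio between lymphocytes and myeloid cells. In the library labelled WT, the level in T and NK cells was between 0.0490% (Il1b) and 4.04% (Spp1) of the myeloid level, an 82.5-fold range. In the library labelled Dapl1-KO it was between 0.0755% (Il1b) and 6.92% (Apoe), a 91.6-fold range. Arg1 (0.0768% and 0.135%), Lyz2 (0.0939% and 0.133%) and Il1b stood near the bottom in both libraries. Pf4 moved from 0.150% to 0.999% and Ccl6 from 0.160% to 0.516%, while their myeloid levels were lower with the Dapl1-KO label.

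**Figure D2:**
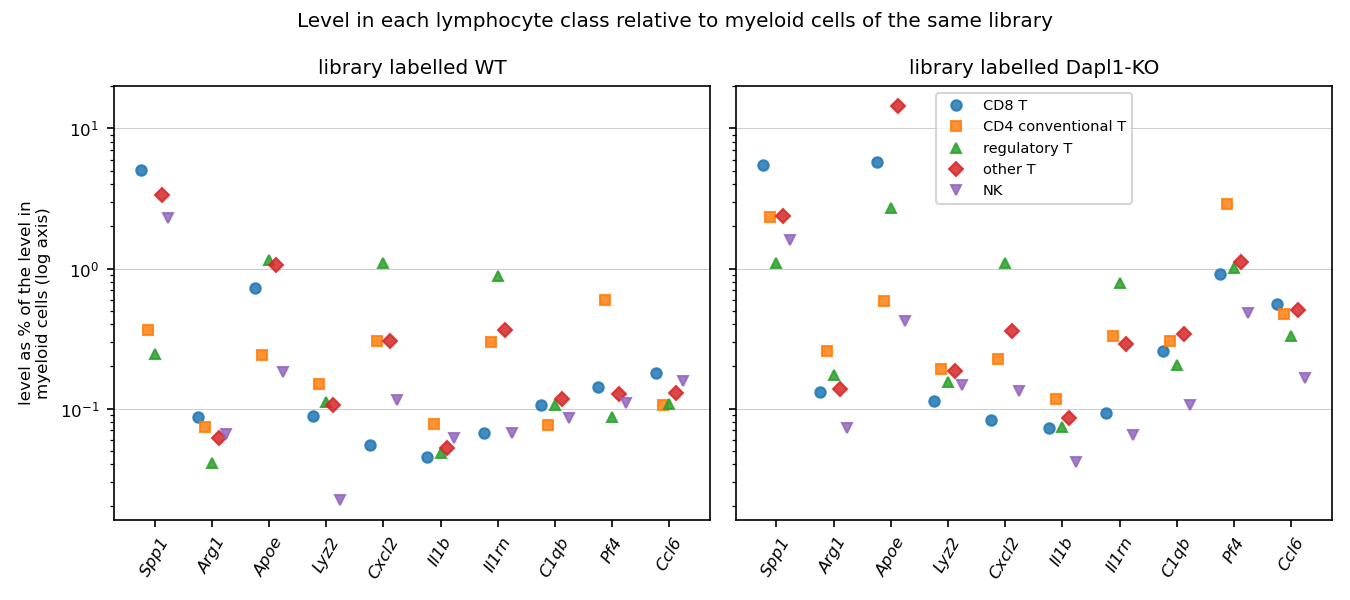
Level of each gene in 5 lymphocyte classes as a percentage of its level in myeloid cells of the same library (log axis), with 1 panel per library. Spp1 in CD8 T cells and Cxcl2 and Il1rn in regulatory T cells lie above the other classes in both libraries, and Apoe lies highest of the 10 in other T cells of the library labelled Dapl1-KO.

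Spp1 was the most abundant of the 10 in T and NK cells, and T and NK cells held 45.1% and 52.4% of all its UMIs. CD8 T cells stood at 98.6 CPM (interval 96.1 to 101) with the WT label and 148 CPM (146 to 151) with the Dapl1-KO label. Conventional CD4 T cells stood at 7.14 and 62.8 CPM, regulatory T cells at 4.77 and 29.4 CPM, other T cells at 65.1 and 63.9 CPM, and NK cells at 45.0 and 42.8 CPM. Thinned to 2000 UMIs, 4.54% and 8.13% of CD8 T cells held Spp1, against 0.994% and 2.80% of regulatory T cells and 1.505% and 2.98% of conventional CD4 T cells. Unthinned shares in CD8 T cells were 12.98% and 21.6%, at medians of 9357 and 10835 UMIs. With the Dapl1-KO label, 135 of 218 UMIs in conventional CD4 T cells and 72 of 201 in regulatory T cells lay in 1 cell each, against sums of 25 and 30 UMIs with the WT label.

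Within CD8 T cells, Spp1 went with the granzymes C to G, cytotoxic proteases of strongly activated killer cells. Cells with at least 3 of these 5 granzymes (323 and 484 cells) stood at 224 and 328 CPM of Spp1, and cells with none of them (2217 and 2748) at 52.9 and 72.8 CPM, folds of 4.24 and 4.50. The granzyme-rich cells were far deeper (medians of 33361 and 30880.5 UMIs against 7664 and 8348.5). Thinned to 2000 UMIs, 20.6% and 30.0% of them held Spp1, against 2.24% and 3.98% of the others. The granzymes themselves were counted without thinning, and the CPM of Spp1 rose with cell depth, as given below. No comparison was made between cells of like depth, so granzymes and depth were not told apart. The granzyme-rich cells were 7.999% and 9.87% of CD8 T cells and held 48.4% and 50.2% of the Spp1 UMIs. The 7 genes other than Spp1, Apoe and Cxcl2 were not higher there, at 9.22 and 14.3 CPM in granzyme-rich cells against 14.7 and 16.1 CPM in the others. Apoe was also higher with granzymes, at 63.7 and 57.3 CPM against 7.91 and 7.74 CPM, but thinned it was held by 1.74% against 1.62% of cells (WT) and 1.497% against 0.774% (Dapl1-KO). Single CD8 T cells held up to 303 and 252 UMIs of Spp1.

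Apoe in T and NK cells went with genes of pigment cells. T and NK cells with at least 3 of the 4 melanocytic genes Pmel, Mlana, Tyrp1 and Dct, which serve melanin-making granules, numbered 15 and 44, or 0.187% and 0.494% of T and NK cells. They held 76.4% and 94.0% of the Apoe UMIs, at 868 and 1076 CPM. T and NK cells with none of them held Apoe at 5.59 and 3.31 CPM. The few melanocytic cells of the libraries (4 and 5 cells, without Cd3 UMIs) held Apoe at 901 and 379 CPM, on 241 and only 10 UMIs. The lymphocytes with melanocytic genes had medians of 129553 and 136106 UMIs, against 7094 and 7887 in those without. The part of second cells in these barcodes was not tested.

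Cxcl2 was highest, among lymphocytes, in regulatory T cells, at 140 CPM (131 to 149) and 73.3 CPM (67.1 to 80.0). CD8 T cells stood at 7.08 and 5.56 CPM, NK cells at 14.7 and 8.92 CPM, conventional CD4 T cells at 38.9 and 15.3 CPM, and other T cells at 39.3 and 24.1 CPM. Thinned, 9.13% and 7.36% of regulatory T cells held Cxcl2, against 1.30% and 1.38% of CD8 T cells. It was not particular to regulatory T cells. Other T cells with a UMI of Il17a or Il17f (91 and 92 cells) held Cxcl2 at 62.8 and 101 CPM. Those without held 38.3 and 20.8 CPM. The cells with Il17a or Il17f thus stood above regulatory T cells under the Dapl1-KO label, and thinned 5.57% and 8.70% of them held Cxcl2. Regulatory T cells with at least 3 UMIs of Areg, a growth factor of tissue-repair regulatory cells, stood at 271 and 125 CPM, and those with no Areg at 65.4 and 30.5 CPM, folds of 4.14 and 4.10. Il1rn stood at 6.78 and 15.1 CPM with Areg and at 1.92 and 7.95 CPM without it, on 11 and 41 against 7 and 24 UMIs. Its folds with over without Areg were 3.52 (interval 1.247 to 10.7) and 1.90 (1.12 to 3.29). The 7-gene sum, which holds Il1rn, was 19.1 and 30.2 CPM with Areg and 10.7 and 21.2 CPM without it, folds of 1.78 (1.07 to 2.93) and 1.43 (1.02 to 2.01). Over all regulatory T cells Il1rn was 3.34 and 11.1 CPM, against 0.253 and 1.30 CPM in CD8 T cells. Lyz2 did not share this pattern, at 2.54 and 3.21 CPM in regulatory T cells and 2.03 and 2.36 CPM in CD8 T cells, with overlapping intervals.

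**Figure D3:**
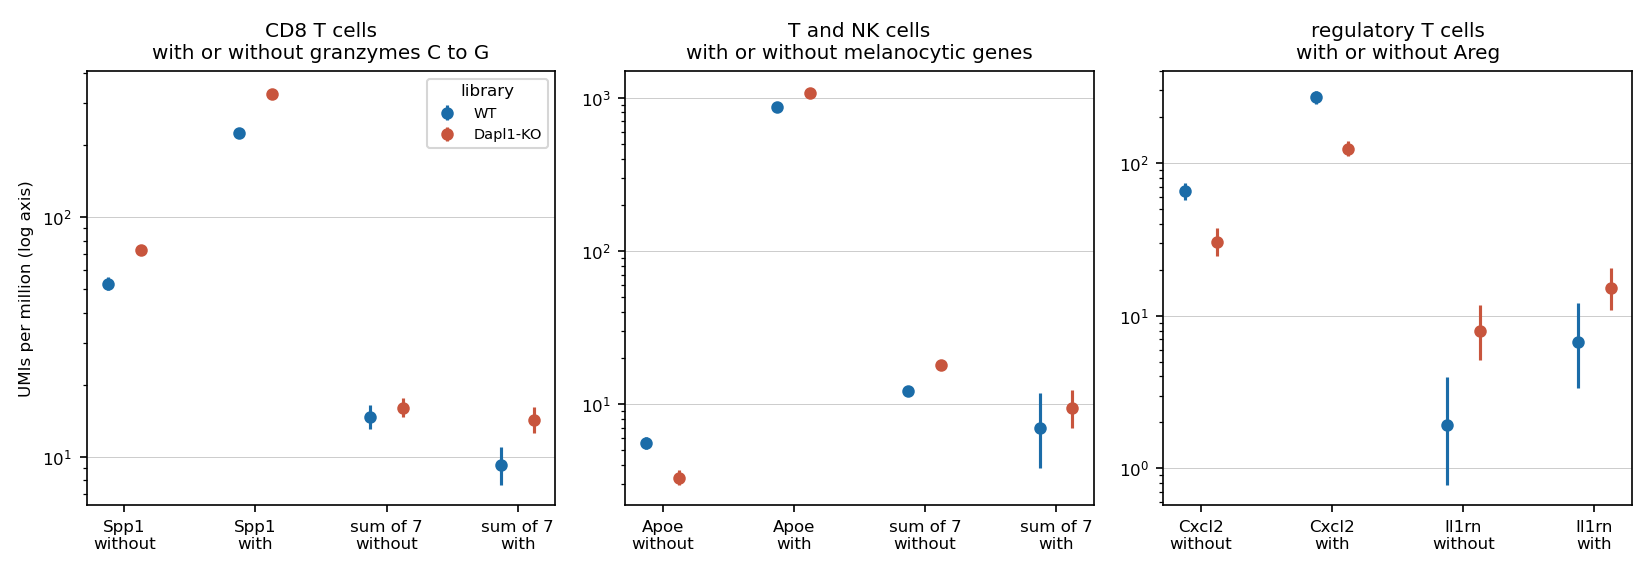
Levels in CPM (log axis) in cells with and without a second gene group, for CD8 T cells by granzymes C to G, T and NK cells by melanocytic genes and regulatory T cells by Areg, with exact 95% Poisson intervals. In both libraries Spp1 is higher with granzymes, Apoe with melanocytic genes, and Cxcl2 and Il1rn with Areg (Il1rn folds of 3.52 and 1.90), while the sum of the 7 genes without Spp1, Apoe and Cxcl2, plotted for the first pair of splits, is not higher there.

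The remaining genes were spread thinly. Arg1, Lyz2, Il1b, C1qb, Pf4 and Ccl6 each stood between 0.890 and 3.44 CPM over T and NK cells, and with Il1rn the 7 genes summed to 12.1 and 17.2 CPM. Of the T and NK cells that held 1 of these 7 genes, 82.9% and 76.4% held a single UMI of them. The 7-gene sum was 11.6 and 15.5 CPM in CD8 T cells, 12.7 and 24.8 CPM in regulatory T cells, 12.2 and 21.1 CPM in other T cells and 9.14 and 9.29 CPM in NK cells. Conventional CD4 T cells came to 20.6 and 27.1 CPM, where 31 of the 72 UMIs in the library labelled WT were Pf4 in 1 cell. NK cells thus stood below the other classes under the Dapl1-KO label, so the level there was not alike in all classes. Thinned to 2000 UMIs, between 2.34% and 3.10% of cells of a class held 1 of the 7 genes under the WT label, and between 1.83% and 5.14% under the Dapl1-KO label.

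The number of these UMIs per cell grew more slowly than cell depth. CD8 T cells were divided by total UMIs into 4 groups of like size. From the shallowest to the deepest group, with medians of 4807.5 and 28689 UMIs in the library labelled WT, the 7-gene sum went from 9.21 to 32.4 UMIs per 100 cells, so its CPM fell from 19.8 to 9.50. In the library labelled Dapl1-KO it went from 13.5 to 45.6 UMIs per 100 cells and from 29.3 to 12.3 CPM. Spp1 did the opposite, with CPM going from 5.31 to 147 and from 16.2 to 188 over the same groups.

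**Figure D4:**
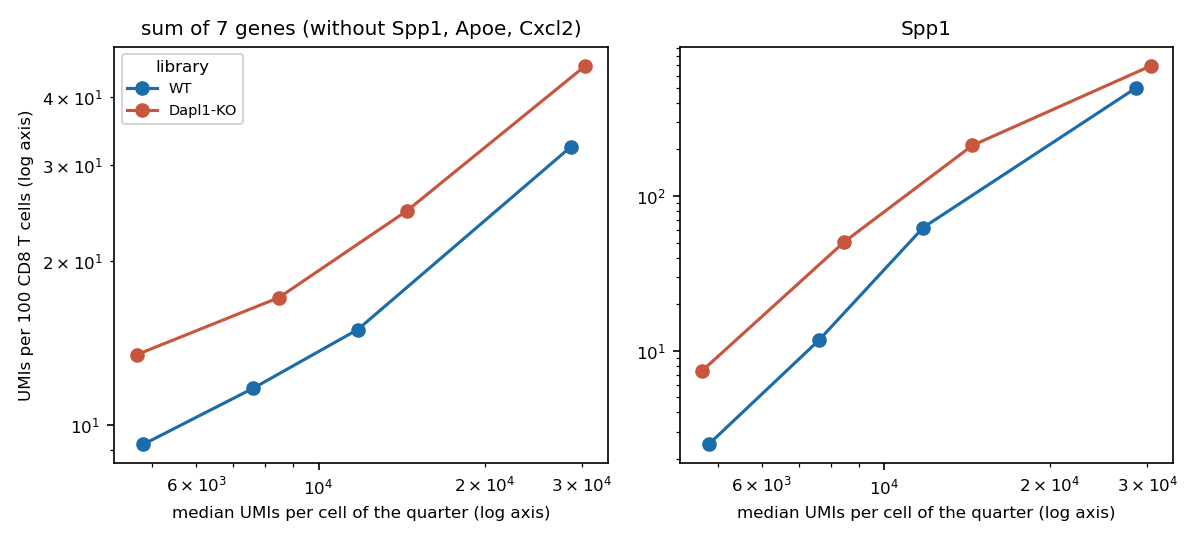
UMIs per 100 CD8 T cells (log axis) against the median total UMIs of each of the 4 depth groups (log axis), for the sum of 7 genes and for Spp1, with 1 line per library. The 7-gene sum goes from 9.21 to 32.4 and from 13.5 to 45.6 UMIs per 100 cells, and Spp1 from 2.48 to 502 and from 7.42 to 693.

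Between the libraries, T and NK cells labelled Dapl1-KO held more UMIs of the 10 genes, with a log2 ratio of 0.52 (0.49 to 0.55), and of the 7-gene sum (0.51, 0.41 to 0.62). A rise was not particular to these genes. In the same cells the melanocytic genes Pmel, Mlana, Tyrp1 and Dct summed to 199 and 661 CPM, and 3.67% and 12.4% of cells held them. The myeloid gate markers, which the gate limits, summed to 17.8 and 18.3 CPM. The cause of these differences was not tested. Il1rn stood at 0.766 and 2.49 CPM (log2 ratio 1.70, interval 1.33 to 2.09), Il1b at 1.62 and 2.97 CPM (0.87) and Arg1 at 0.890 and 1.37 CPM (0.62). Apoe stood at 23.4 and 51.2 CPM (1.13), but at 5.59 and 3.31 CPM (-0.76) where no melanocytic gene was seen. Cxcl2 was lower, at 25.1 and 13.5 CPM (-0.89). Spp1 stood at 78.8 and 118 CPM (0.58). Lyz2 (0.37), C1qb (0.51), Ccl6 (0.41) and Pf4 (-0.38) differed by less than 1.5-fold. Thus 4 of the 10 genes were at least 1.5-fold higher and 1 at least 1.5-fold lower, where 3.8% and 5.05% of the 11531 genes at 1 CPM or more passed those folds. At 5 CPM or more only Spp1, Apoe and Cxcl2 remained, with 1 higher and 1 lower, beside 2.2% and 2.51% of 8561 genes. The median log2 ratio was 0.54 over the 10 genes and -0.01 over the 11531. The counts rest on how cells were kept. With no limit on myeloid markers in T and NK cells, 1 gene was higher, 6 were lower and the 10-gene ratio was -0.38. That setting counts mixed cells with at least 2 Cd3 UMIs as T cells. It also takes in lymphocytes with more than 1 gate marker but too few for the mixed class, which gave 8570 and 9690 T and NK cells. Mixed cells held 65898 and 48401 UMIs of the 10 genes, against 13472 and 23663 in T and NK cells as gated here. Among cells with a Y-linked UMI and neither Xist nor Tsix the 10-gene ratio was 1.59.

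**Figure D5:**
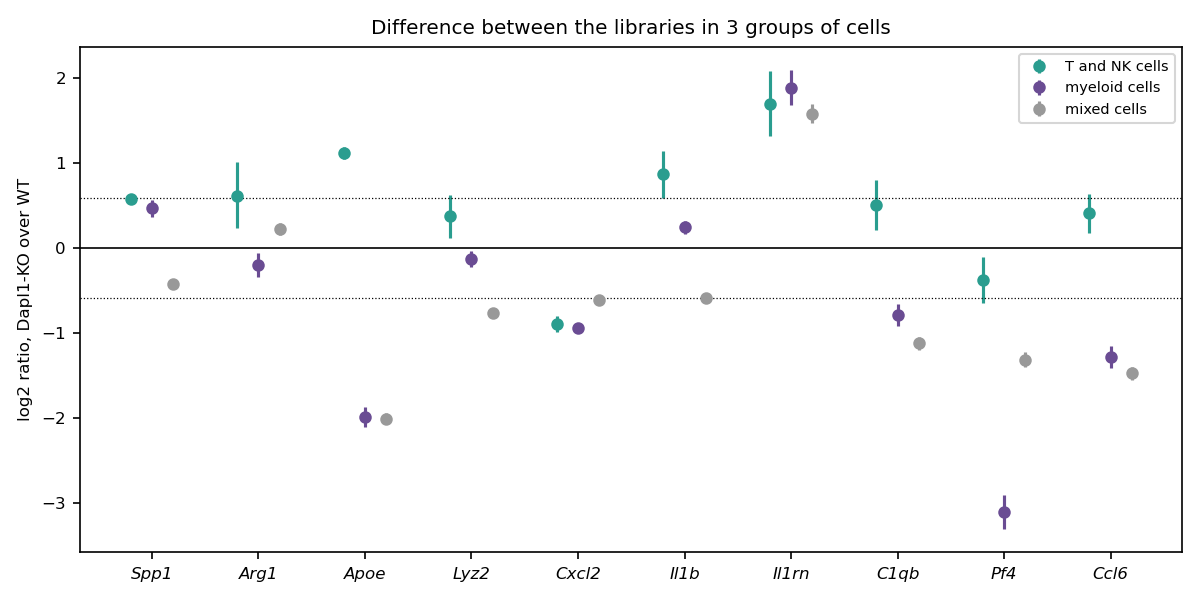
Log2 ratio of Dapl1-KO over WT for each gene in T and NK cells, myeloid cells and mixed cells, with exact 95% intervals from the counts and dotted lines at 1.5-fold. Il1rn is higher and Cxcl2 lower in all 3 groups of cells, while Apoe, C1qb and Ccl6 are lower in myeloid and mixed cells and higher in T and NK cells.

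The set of myeloid genes around the 10 was described from 7 lists, with the background that 20.8% of the 8910 genes at 5 CPM or more in myeloid cells were at least 1.5-fold higher with the Dapl1-KO label and 18.9% lower, and that their median log2 ratio was -0.01. Of 16 measured chemokines and receptors, 2 were higher and 6 lower (median -0.45). The monocyte-attracting Ccl2 was 2935 and 828 CPM and Ccl7 1383 and 352 CPM, while Ccl4 was 4531 and 2433 CPM and Ccl3 1212 and 1058 CPM. Of 7 complement genes, 1 was higher and 3 lower (median -0.42), with C1qa at 898 and 589.7 CPM, C1qc at 760.5 and 420.2 CPM, C3ar1 at 191 and 143 CPM and Cfp at 123 and 131 CPM. Of 8 lysosomal genes, 0 were higher and 4 lower (median -0.57), with the proteases Ctsb at 3222 and 2031 CPM, Ctss at 1564 and 1259.9 CPM, Ctsd at 1237 and 676 CPM and Lgmn at 1129.99 and 816 CPM. Lyz1, a near-identical copy of Lyz2, had 0 and 1 UMIs in myeloid cells.

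Of 11 genes of lipid handling, 1 was higher and 4 lower (median -0.29). Lpl, which releases fatty acids from lipoproteins, was 411 and 178 CPM, Lgals3 8015 and 4929.7 CPM, the lipid droplet protein Plin2 1030.02 and 845 CPM, and the fatty acid carrier Fabp5 2014 and 1982 CPM. Of 5 genes of arginine use, 4 were higher and 0 lower (median 1.01). Nos2, which makes nitric oxide from arginine, was 159 and 506 CPM, Ass1, which rebuilds arginine, 64.3 and 166 CPM, and Arg2 30.3 and 61.0 CPM. Odc1, which starts polyamine synthesis, was 387 and 301 CPM. Of 9 osteopontin receptor and matrix genes, 6 were higher and 2 lower (median 0.78), with fibronectin (Fn1) at 269.6 and 680.04 CPM, the osteopontin receptor Cd44 at 345 and 466 CPM, Thbs1 at 2076 and 1377 CPM and the protease Mmp12 at 346 and 128 CPM. Of 7 genes of the interleukin-1 family and its receptors, 0 were higher and 2 lower (median -0.09), with Il1a at 319.5 and 185 CPM, Nlrp3, which leads to cleavage of interleukin-1 beta, at 169.6 and 188 CPM, Casp1, which cleaves it, at 73.2 and 48.2 CPM, and the decoy receptor Il1r2 at 39.3 and 36.9 CPM.

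Genes most like the 10 were ranked over 15 profiles (a class of at least 50 cells in a library, which share their libraries and the contrast of myeloid to lymphoid cells) by Pearson's r of log2(CPM + 1), among 1297 genes at 100 CPM or more in myeloid cells. No myeloid class labelled WT reached 50 cells. The only myeloid profile was that of macrophage-like cells labelled Dapl1-KO, beside the mixed cells of both libraries. Wfdc17 (r = 0.996), Ifi207 (0.993), C1qa (0.993), Ifi205 (0.992) and Mpeg1 (0.992), a pore-forming protein of macrophages, were nearest to the mean of the 10. Of the 10 themselves, Spp1 (0.874), Apoe (0.900) and Cxcl2 (0.930) were farthest from that mean and C1qb (0.997) nearest. By single gene, the nearest profile was Upp1 to Spp1 (0.946), Nupr1 to Apoe (0.961), Gda to Cxcl2 (0.978) and Fth1, a ferritin chain that stores iron, to Il1rn (0.979). Wfdc17 was nearest to Arg1 (0.998) and Il1b (0.995), C1qa to Lyz2 (0.994), Ifi207 to C1qb (0.997) and Ccl6 (0.994), and Cxcl3 to Pf4 (0.971).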

How the data were processed

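RNA of sorted cells was read in 2 libraries, and the authors deposited raw UMI counts, as whole numbers, for each gene and barcode. Cell Ranger 5.0.0, mm10 and GRCm38 are listed per the submitters' processing notes. How many animals gave cells to a library is not stated in the labels. Groups came from the genotype labels. The libraries held 154408101 and 206322042 UMIs.

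Of each shared barcode the copy with at least 2 times the UMIs of the other was kept, which dropped 5983 and 7128 copies, and 21 unclear barcodes were left out of each library. Barcodes were then kept if they held 500 genes or more and no more than 10% mitochondrial UMIs. No automatic doublet calls were obtained from Scrublet (scanpy 1.11.5), so 876 and 1006 cells were removed by a score set at a rate of 0.8% per 1000 cells. Classes came from gates on marker genes, none of them among the 10, and may differ from the study's own classes. T cells had at least 2 Cd3 UMIs, NK cells at least 2 of 6 NK genes and at most 1 Cd3 UMI, and both at most 1 myeloid gate marker. Regulatory T cells had Foxp3 and no Cd8a or Cd8b1, conventional CD4 T cells Cd4 without these, CD8 T cells Cd8a or Cd8b1 without Cd4 and Foxp3, and other T cells were the rest.

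Counts were summed per class and library and given as CPM. Ratios and shares have exact intervals (binomial, Clopper-Pearson for shares), a count of 0 stands at 3 counts, and thinned shares are the expected share of cells with a UMI when 2000 UMIs are drawn from each cell, which left out 83 and 84 T and NK cells. The calculation was tested on simulated data. All 10 genes, the 4 genes of each list with the highest myeloid level, and the nearest profiles by a fixed ranking are named. The members, lists and gates were chosen with earlier results of these data known. The splits of cells by other genes were chosen after the values had been seen. So were the alternatives built on granzymes and melanocytic genes, the motif letters and the promoters shown. Lyz2 can share reads with Lyz1. Python 3.11.15, numpy 2.4.6 and scipy 1.17.1 were used. One control list of another cell type is not reported here.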

Additional observations from a re-analysis of the deposited data

Results flagged for a closer look

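For 5 genes the library labelled Dapl1-KO lay above the library labelled WT in T and NK cells and below it in myeloid cells, with neither interval holding 0. The log2 ratio in T and NK cells minus that in myeloid cells was 3.12 for Apoe, 1.69 for Ccl6, 1.30 for C1qb, 0.82 for Arg1 and 0.51 for Lyz2. With 1 library per label the difference was not tested. For Apoe it depends on lymphocytes with melanocytic UMIs: in the 7734 and 7805 T and NK cells without any such UMI its ratio was -0.76. The opposite directions were also lost for other genes in some settings. With no limit on myeloid markers, mixed cells with at least 2 Cd3 UMIs count as T cells, and lymphocytes with more than 1 marker but too few for the mixed class also enter. The ratios in T and NK cells were then -1.27 for Ccl6, -1.04 for C1qb and -0.75 for Lyz2. With every copy of shared barcodes kept, that of Arg1 was -0.077. In myeloid cells, Arg1 and Lyz2 differed by less than 1.5-fold.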

How the results depend on the processing

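No paired analysis was possible because each label has 1 library and no replicate numbers. The base values for the 10-gene sum were log2 ratios of 0.52 in T and NK cells and -0.55 in myeloid cells, levels in T and NK cells of 0.470% (WT) and 0.982% (Dapl1-KO) of the myeloid level, 4 genes at least 1.5-fold higher and 1 lower in T and NK cells, and thinned shares of 9.60% and 12.1%. The cause of each change below was not tested. With every copy of shared barcodes kept, the ratios were 0.30 and -0.37, the percentages 0.572% and 0.913%, 2 genes were higher, the WT share was 12.9%, and Arg1 (-0.077) and Il1b (-0.54) changed direction in T and NK cells. The limits on genes and mitochondrial counts still applied there, and the restored copies had no doublet score. Among barcodes found in 1 library, which leave 1 WT myeloid cell, the ratios were 0.74 and 1.48, the percentages 0.560% and 0.335%, 2 genes were higher and 2 lower, the shares were 6.91% and 8.88%, and Apoe (-1.13) and Cxcl2 (0.56) in T and NK cells and Cxcl2 (2.01) and Il1rn (-0.73) in myeloid cells changed direction. Requiring 1000 genes and at most 5% mitochondrial counts gave -0.60 in myeloid cells and 0.458% in WT. Without doublet removal the T and NK ratio was 0.45, the Dapl1-KO percentage 0.959%, and 2 genes were lower. With none of the gate markers allowed in T and NK cells, the ratio was 0.42, the percentages 0.423% and 0.825%, 2 genes were lower and the Dapl1-KO share was 11.2%. With no limit on those markers, mixed cells with at least 2 Cd3 UMIs count as T cells, and lymphocytes with more than 1 marker but too few for the mixed class also enter. The ratio was then -0.38, the percentages 2.45% and 2.74%, and 1 gene was higher and 6 lower. The shares were 11.7% and 15.5%, and Apoe (-0.66) and Il1b (-0.50) changed direction. Myeloid cells with at least 6 gate markers gave 0.453% and 0.962%. Without the top 1% of T and NK cells, the ratio was 0.66, the percentages 0.239% and 0.553%, 0 genes were lower, the shares were 8.76% and 11.3%, and Apoe was -0.50. Among cells with a Y-linked UMI and neither Xist nor Tsix, which leave 2 WT myeloid cells, the ratios were 1.59 and -1.21, the percentages 0.154% and 1.07%, 2 genes were lower, the WT share was 7.59%, and Ccl6 in myeloid cells was 0.63. The mean over cells gave ratios of 0.44 and -0.32, percentages of 0.336% and 0.567%, 2 genes lower and Apoe at -0.11. At a lower fold limit 8 genes were higher and 2 lower, and at 2-fold 2 and 0. Thinning to 4000 UMIs gave shares of 15.2% and 19.3%, and no thinning 26.9% and 33.0%. Of the alternatives chosen after seeing the data, leaving out T and NK cells with melanocytic UMIs gave a ratio of 0.35, percentages of 0.390% and 0.728%, 2 genes lower and Apoe at -0.76. Myeloid cells with no Cd3 limit gave 0.954% and 1.97%. Without granzyme-rich CD8 T cells the percentages were 0.389% and 0.802% and the Dapl1-KO share was 10.9%. Without Spp1, Apoe and Cxcl2 the myeloid ratio was -0.23, the percentages were 0.101% and 0.169%, 0 genes were lower and the shares were 2.56% and 3.59%. Further changes of sign in T and NK cells were C1qb (-1.04), Lyz2 (-0.75) and Ccl6 (-1.27) with no limit on gate markers, C1qb (-0.063) among cells with a Y-linked UMI, and Lyz2 (-0.0023) without doublet removal. In myeloid cells they were Spp1 (-2.14) and Il1b (-0.57) among barcodes found in 1 library, Spp1 (-0.051), Il1b (-0.22) and Arg1 (0.22) with no Cd3 limit, and Lyz2 with at least 6 gate markers (0.0082) and among cells with a Y-linked UMI (0.74). Apoe, C1qb and Pf4 in myeloid cells, and Spp1, Il1rn and Pf4 in T and NK cells, kept their direction in each setting run for them (14 settings for Spp1 and Apoe, 15 for the others). With 45 WT myeloid cells, 1 cell can move a myeloid level.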
